A study of Mus musculus with 12 samples.

Results

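In liver RNA, 10 genes often read as markers of tissue injury were followed: 4 S100 genes (S100a4, S100a6, S100a10 and S100a11), 3 annexins (Anxa1, Anxa2 and Anxa5), and Cd68, Lgals3 and Sprr1a. They were picked by gene name, with their levels in these libraries already known, as 10 of the 53796 genes listed. Their levels are therefore a description and carry no test. The 12 libraries of total liver RNA form 4 groups of 3. RIPK1_D138N libraries come from mice with an aspartate-to-asparagine change in the kinase RIPK1 that is known to remove its activity. TNFR12_KO libraries come from mice labelled as lacking the TNF receptors TNFR1 and TNFR2. WT libraries and Sham libraries are both wild type, and the word sham is attached to the last group alone. The title and design of the series compare livers with and without ischemia, an interruption of blood supply, so the first 3 groups were taken as the ischemia arm. Sham libraries of the mutant genotypes were not analysed here, and livers were collected at a time after operation not given in the sources used here. The labels do not say that the repeats are separate animals, so p-values measure only the spread between these samples.

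S100 proteins are small calcium sensors that change shape when calcium enters the cell and then bind partner proteins. Annexins bind acidic phospholipids of membranes when calcium rises and help to patch torn plasma membranes, and several S100 proteins work as partners of a particular annexin. Galectin-3, the product of Lgals3, is a sugar-binding protein that gathers on damaged lysosomes. CD68 is a glycoprotein of the lysosomal membrane and a common macrophage marker. SPRR1A is a precursor of the cornified envelope of skin that also appears in injured neurons and stressed heart muscle.

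On mm10, S100a4 (90603771 to 90606045), S100a6 (90612882 to 90624181), Sprr1a (92483952 to 92485895), S100a11 (93520488 to 93526287) and S100a10 (93555080 to 93564643) lie on chromosome 3, as does Anxa5 (36448923 to 36475894). Anxa2 lies on chromosome 9 (69453620 to 69491795), Cd68 on chromosome 11 (69664213 to 69666153), Lgals3 on chromosome 14 (47367751 to 47386160) and Anxa1 on chromosome 19 (20373428 to 20390944). S100, SPRR and late cornified envelope genes share a cluster on chromosome 3.

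Levels are given as FPKM, fragments scaled to transcript length and depth, so genes can be compared with each other. The FPKM of all genes summed to 489348 to 518579.6 in RIPK1_D138N, 441296 to 512931 in TNFR12_KO, 288934 to 303514 in WT and 649373 to 750501 in Sham. Each library held 10135 to 10653 genes at 1 FPKM or more. RIPK1_D138N libraries 2 and 3 stood apart, with 20.1 and 23.4 FPKM of Xist, which silences the second X chromosome of females, against 0.0824 or less in the other 10 libraries. Values without these libraries are given for some of the 10 genes and of their families. All other RIPK1_D138N results include these libraries and rest largely on them. Tnfrsf1a, the gene of TNFR1, was still listed at 15.3 to 21.9 FPKM in TNFR12_KO, against 32.3 to 38.1 FPKM in WT, and Tnfrsf1b, the gene of TNFR2, at 3.96 to 9.31 FPKM, against 8.13 to 10.2 FPKM in WT. Transcript outside a deleted stretch can still be counted, so these levels do not check the deletion. The numbers in the WT and Sham column names could not be matched to samples, because titles and descriptions number the repeats differently. The WT and Sham libraries are therefore called a, b and c.

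Of the 10 genes, 7 were higher in every WT library than in every Sham library: Sprr1a, Anxa2, Cd68, S100a11, Anxa5, S100a6 and S100a4. Among all 11728 genes tested, 18% stood apart in this direction, and nothing is read from the count of 7, because these values chose the genes. The median difference of the 10 genes was 2.05 on the log2(FPKM + 1) scale, beside -0.36 over all genes. Anxa1 and Lgals3 overlapped between WT and Sham, and S100a10, the most abundant of the 10, was no higher in WT. Against WT, 7 genes lay wholly lower in RIPK1_D138N, where 25.4% of all genes did, and 8 in TNFR12_KO, where 22% did. The mean levels of the 7 genes that separated WT from Sham lay nearer to Sham than to WT in both mutants.

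**Figure D1:**
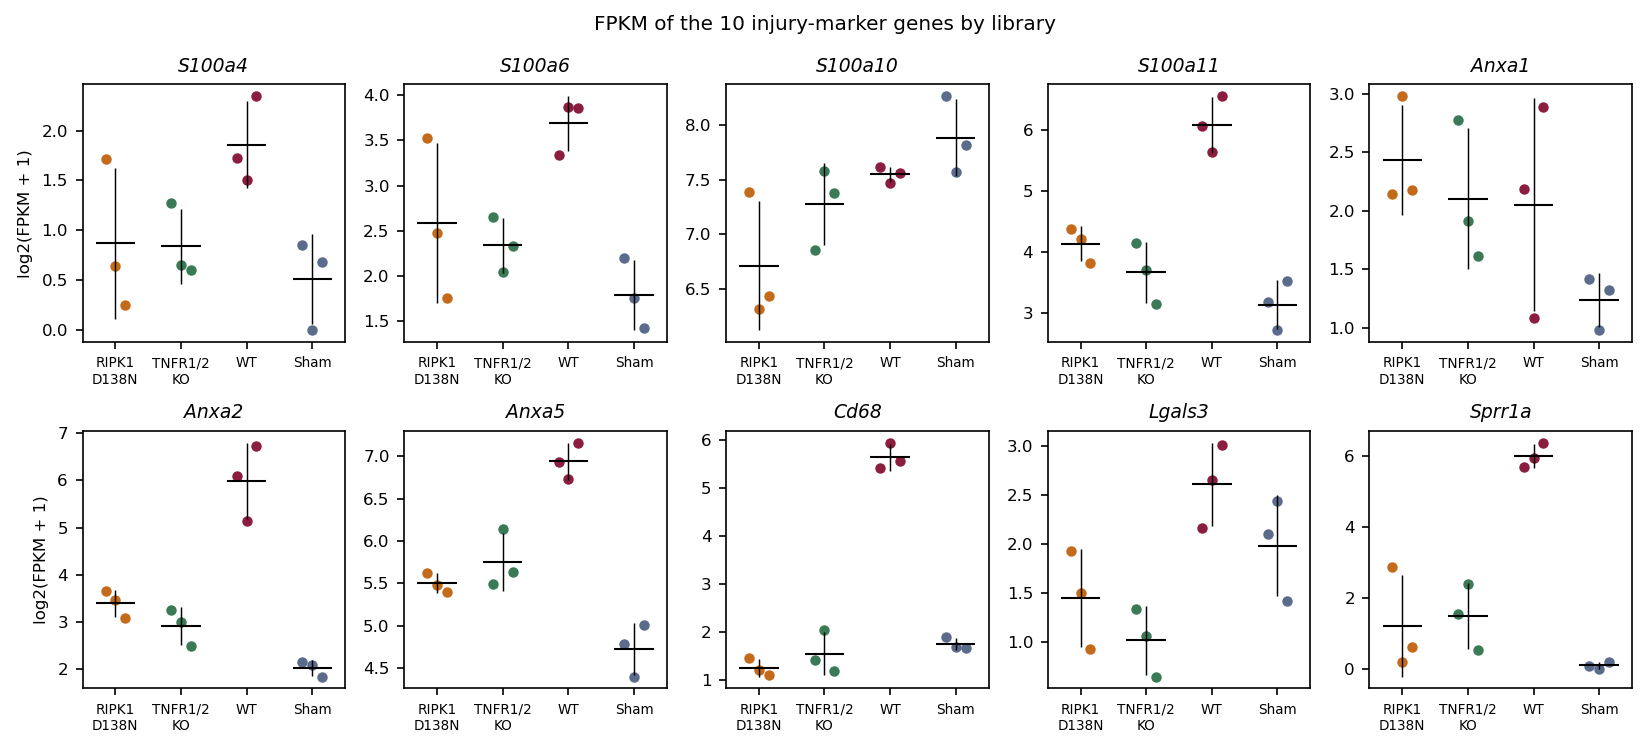
Level of each of the 10 genes as log2(FPKM + 1), with its own axis per gene. Points are libraries (3 per group), horizontal bars group means and vertical lines ± 1 SD. The 3 WT libraries lie above all Sham libraries for 7 genes, whereas S100a10 ranges from 177 to 195 FPKM in WT and from 189 to 307 FPKM in Sham.

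The promoters of the 4 genes with the greatest WT minus Sham differences held the same short sequence. AP-1, the dimer of Fos and Jun family proteins, binds a palindrome written TGANTCA here, and both strands were searched in the 250 bases before and 50 bases after each transcription start. The motif lay in the windows of Sprr1a, Anxa2, Cd68 and S100a11, and not in those of Anxa1, Anxa5, Lgals3, S100a4 and S100a6. It lay in 7.81% of all 32851 windows of this length. Nothing is read from this share, because the levels that rank the genes also chose them, and the motif was picked with them known. S100a10 has no entry in the promoter table. The stretches below are from RefSeq (GRCm38.p6), 5′ to 3′ on the strand of the gene, with AP-1 matches in capitals: Anxa2 at chr9:69453513-69453682 (plus strand), Cd68 at chr11:69666171-69666340 (minus strand), S100a11 at chr3:93520326-93520495 (plus strand) and Sprr1a at chr3:92485882-92486051 (minus strand).
Anxa2: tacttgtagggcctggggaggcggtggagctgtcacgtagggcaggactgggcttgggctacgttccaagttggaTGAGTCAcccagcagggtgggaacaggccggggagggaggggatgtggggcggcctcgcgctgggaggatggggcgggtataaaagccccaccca
Cd68: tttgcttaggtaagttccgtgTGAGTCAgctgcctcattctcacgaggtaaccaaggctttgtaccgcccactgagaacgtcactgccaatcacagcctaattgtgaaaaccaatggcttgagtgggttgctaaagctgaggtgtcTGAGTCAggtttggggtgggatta
S100a11: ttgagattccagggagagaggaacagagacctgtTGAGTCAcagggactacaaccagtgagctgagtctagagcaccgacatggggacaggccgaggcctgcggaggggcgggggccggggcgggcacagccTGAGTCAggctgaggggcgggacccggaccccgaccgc
Sprr1a: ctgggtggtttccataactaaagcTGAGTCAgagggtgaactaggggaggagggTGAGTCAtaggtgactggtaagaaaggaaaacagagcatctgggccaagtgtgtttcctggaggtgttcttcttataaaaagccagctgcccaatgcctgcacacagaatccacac

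Counting the start as base 0, the matches began at -95 in Anxa2, at -149 and -24 in Cd68, at -136 and -38 in S100a11, and at -146 and -116 in Sprr1a. The other motifs searched were spread differently. The hypoxia element ACGTG (19.6% of all windows) was found in Anxa2, Anxa5, S100a11 and S100a6, the letters TATAAA (13.6%) in Anxa1, Anxa2, S100a4 and Sprr1a, GGGCGG (35.7%) in Anxa2, Cd68, Lgals3 and S100a11, and CCAAT (37.4%) in Cd68, Lgals3, S100a6 and Sprr1a. The ATF/CREB element TGACGTCA (1.79%) and the NF-κB motif (1.47%) were in 0 of the 9 windows. These motifs were chosen after the levels were seen, and a match is a run of letters, not a measured binding site. No match says only that the letters are not in this window.

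**Figure D2:**
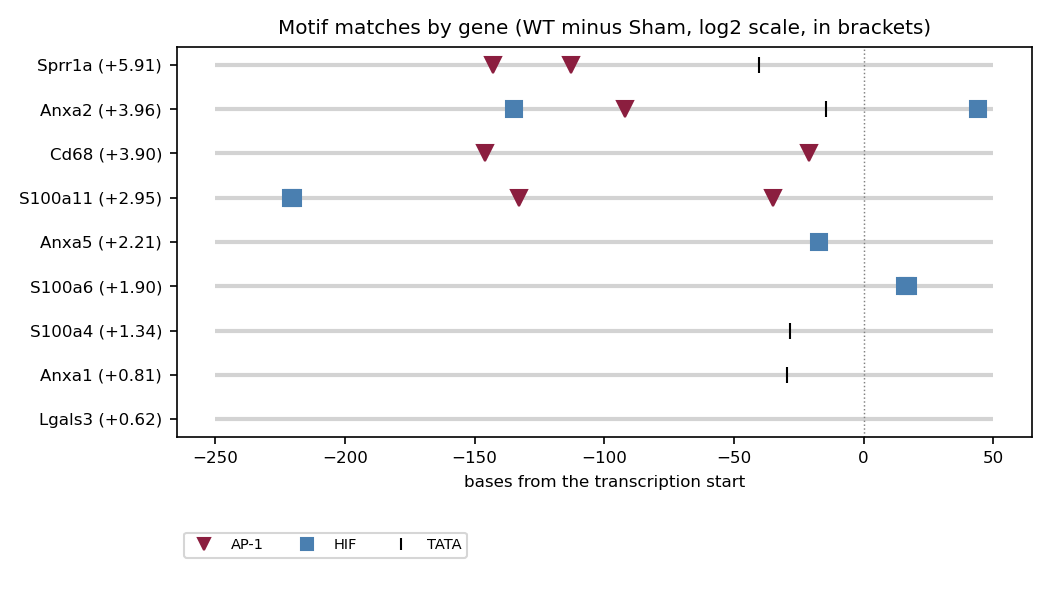
Position of AP-1, hypoxia-element (HIF) and TATA matches along the promoter windows of 9 genes, in bases from the transcription start (dotted line). Genes run from the greatest WT minus Sham difference (top, Sprr1a at 5.91) to the smallest (Lgals3 at 0.62). The AP-1 triangles fall in the top 4 rows, in an order set by the values that chose the genes.

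Among the S100 genes, S100a11, whose protein pairs with annexin A1 at membranes, differed most between WT and Sham. Its level was 19.7, 17.4 and 13 FPKM in RIPK1_D138N, 16.7, 11.9 and 7.78 FPKM in TNFR12_KO, 65.5, 48.6 and 92.5 FPKM in WT, and 7.97, 5.55 and 10.4 FPKM in Sham. All WT libraries lay above the other 9, the RIPK1_D138N libraries lay above all Sham libraries, and TNFR12_KO overlapped Sham. The difference was 2.95 (SE 0.30) for WT minus Sham, -1.95 (SE 0.30) for RIPK1_D138N minus WT and -2.42 (SE 0.30) for TNFR12_KO minus WT on the log2 scale.

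S100a6, or calcyclin, a partner of the ubiquitin-ligase adaptor CacyBP, followed the same order at lower levels. Its values were 10.5, 4.56 and 2.39 FPKM in RIPK1_D138N, 5.28, 3.12 and 4.05 FPKM in TNFR12_KO, 9.14, 13.6 and 13.5 FPKM in WT, and 3.58, 2.37 and 1.68 FPKM in Sham. WT stood clear of TNFR12_KO and Sham, whereas RIPK1_D138N library 1 lay among the WT libraries. S100a4, which binds non-muscle myosin and is known from fibroblasts and macrophages, had 2.28, 0.566 and 0.187 FPKM in RIPK1_D138N, 1.42, 0.567 and 0.516 FPKM in TNFR12_KO, 2.31, 1.83 and 4.08 FPKM in WT, and 0.808, 0 and 0.607 FPKM in Sham. RIPK1_D138N library 1 was again within the WT range. The locus listed for S100a4 begins at 90560556 on chromosome 3, ahead of the annotated gene start at 90603771, and overlaps another annotated transcript on the same strand, so these low values may include its fragments.

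S100a10, or p11, lacks calcium binding and forms a tetramer with annexin A2 that docks plasminogen on the cell surface. It had 167, 78.5 and 85.7 FPKM in RIPK1_D138N, 115, 191 and 166 FPKM in TNFR12_KO, 195, 177 and 188 FPKM in WT, and 307, 189 and 225 FPKM in Sham. RIPK1_D138N lay under both WT and Sham in every library, whereas TNFR12_KO, WT and Sham overlapped. With median-of-ratios scaling RIPK1_D138N overlapped Sham. The WT minus Sham difference was -0.33 (SE 0.29), and it became 0.01 with median-of-ratios scaling and 0.79 with quantile normalization, so no direction is given. For RIPK1_D138N minus WT it was -0.84 (SE 0.29), and -0.16 without the Xist-positive libraries.

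Anxa2, the annexin that S100a10 binds, had 11.5, 9.95 and 7.4 FPKM in RIPK1_D138N, 8.5, 7.03 and 4.57 FPKM in TNFR12_KO, 67.6, 34.1 and 106 FPKM in WT, and 3.44, 3.26 and 2.57 FPKM in Sham. The 4 groups did not overlap except for RIPK1_D138N with TNFR12_KO. Mean Anxa2 in WT was 22.4 times that in Sham, a difference of 3.96 (SE 0.33). Both mutants were under WT, by -2.60 and -3.08 (SE 0.33 each), and above Sham, by 1.36 and 0.88. An antisense transcript is annotated at the locus, and no strand setting for the counting is stated in the labels.

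Because S100a10 did not follow Anxa2, the level of Anxa2 per S100a10 differed widely between groups. The ratio was 0.0688, 0.127 and 0.0863 in RIPK1_D138N, 0.0742, 0.0367 and 0.0275 in TNFR12_KO, 0.347, 0.193 and 0.561 in WT, and 0.0112, 0.0172 and 0.0114 in Sham. Within each library S100a10 transcript exceeded Anxa2 transcript, and WT came closest to parity. A ratio within a library does not depend on the scaling between libraries.

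**Figure D3:**
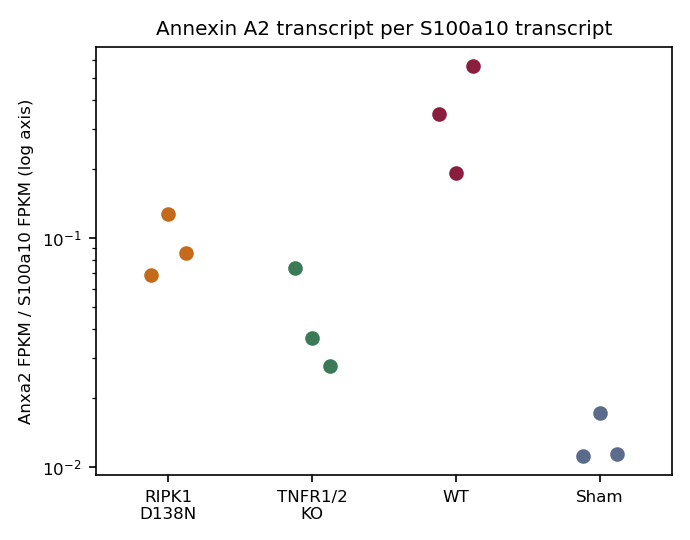
Anxa2 FPKM divided by S100a10 FPKM in each of the 12 libraries, on a log axis; points are libraries (3 per group). WT libraries lie between 0.193 and 0.561, and Sham libraries between 0.0112 and 0.0172.

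Anxa5, which binds the phosphatidylserine that dying cells expose, was the most abundant of the 3 annexins. It had 48.4, 43.6 and 41.3 FPKM in RIPK1_D138N, 43.9, 69.3 and 48.8 FPKM in TNFR12_KO, 121, 105 and 142 FPKM in WT, and 26.6, 20.1 and 31.1 FPKM in Sham. Both mutants lay between WT and Sham with no overlap on either side. The WT minus Sham difference was 2.21 (SE 0.21), and those of RIPK1_D138N and TNFR12_KO minus Sham were 0.77 and 1.02 (SE 0.21 each).

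Anxa1, a glucocorticoid-responsive annexin that acts on formyl peptide receptors to limit inflammation, did not share this pattern. It had 3.41, 6.88 and 3.53 FPKM in RIPK1_D138N, 5.84, 2.77 and 2.06 FPKM in TNFR12_KO, 3.54, 1.12 and 6.39 FPKM in WT, and 1.67, 0.972 and 1.5 FPKM in Sham. All 6 mutant libraries lay above the Sham libraries, whereas WT library b lay among them. WT and Sham overlapped, with a difference of 0.81 (SE 0.41). Anxa1 lies within a non-coding gene annotated on the opposite strand.

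**Figure D4:**
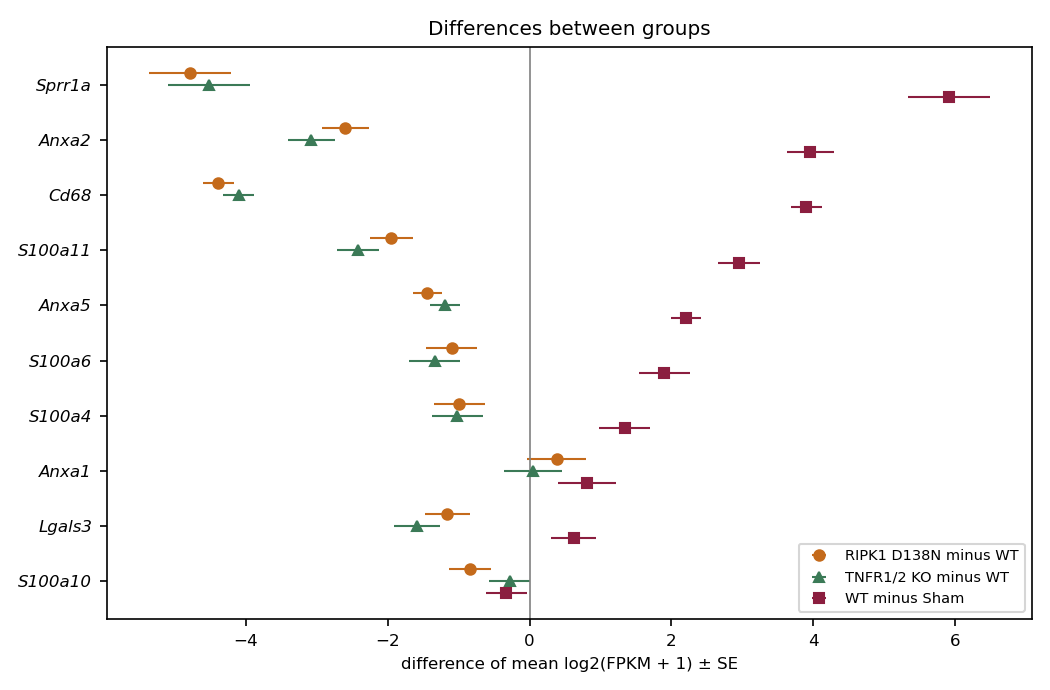
Difference of mean log2(FPKM + 1) between groups for each gene, with bars of ± 1 SE from the fit over 12 libraries. Values of RIPK1_D138N and TNFR12_KO minus WT lie left of 0 for 9 genes and near or right of 0 for Anxa1; WT minus Sham ranges from 5.91 for Sprr1a to -0.33 for S100a10.

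Cd68 showed the clearest separation of WT from the other 9 libraries. It had 1.74, 1.3 and 1.13 FPKM in RIPK1_D138N, 1.65, 3.11 and 1.26 FPKM in TNFR12_KO, 41.7, 60.8 and 46.3 FPKM in WT, and 2.71, 2.23 and 2.14 FPKM in Sham. The lowest WT library was thus far above the highest of any other group. RIPK1_D138N lay under Sham in every library in FPKM as listed, but overlapped it with median-of-ratios scaling. The WT minus Sham difference was 3.90 (SE 0.22), with a ratio of means of 21. Those of RIPK1_D138N and TNFR12_KO minus WT were -4.39 and -4.10 (SE 0.22 each).

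In WT against Sham, the tested genes of a list of macrophage markers did not rise with Cd68. Of 14 Kupffer cell and macrophage markers besides Cd68, 11 were tested, and in WT against Sham 0 rose and 8 fell (limma, adjusted p under 0.05), where 16.4% of all genes rose and 41.9% fell. Clec4f, a Kupffer cell lectin, had 4.44, 4.94 and 3.9 FPKM in WT against 29.6, 23.3 and 14.4 FPKM in Sham (-2.06, SE 0.25, limma adjusted p = 1.87e-05), and Cd5l, a protein secreted by macrophages, differed by -2.35 (adjusted p = 3.16e-05). Vsig4, a complement receptor, and C1qa, a complement component, also fell, by 1.77 and 1.32. Against WT, 0 of the 11 rose and 3 fell in RIPK1_D138N, where 29.8% of all genes rose and 21.9% fell. In TNFR12_KO 1 rose (Mpeg1, a macrophage perforin, at 0.83) and 7 fell, where 29.6% rose and 17.5% fell. C1qa fell in both, by 0.66 and 1.39 (limma adjusted p = 0.0104 and 6.97e-05), as did the scavenger receptor gene Marco, by 1.20 and 1.49. Adgre1, which encodes the pan-macrophage antigen F4/80, was too low to be tested, at 0.178 to 0.283 FPKM in WT and 0.246 to 0.928 FPKM in Sham. Timd4 and Fcgr1 were also too low. Timd4 had 0.095 to 0.293 FPKM in WT and 0.467 to 1.36 FPKM in Sham. Fcgr1 went the other way, with 0.758 to 1.15 FPKM in WT and 0.42 to 0.735 FPKM in Sham. Cd14, not on this list and treated below, averaged 185 FPKM in WT and 3.27 FPKM in Sham. The list summed to 42.4 to 57.4 FPKM in RIPK1_D138N, 27.0 to 38.2 FPKM in TNFR12_KO, 53.2 to 59.8 FPKM in WT and 114 to 185 FPKM in Sham. Fewer cells of a type and less RNA per cell cannot be told apart in bulk tissue.

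The protein of Cd68 belongs to the LAMP family of lysosomal membrane proteins, of which Lamp1 and Lamp2 fell in WT against Sham. Lamp2 had 52.2, 50.9 and 49.6 FPKM in WT against 291, 249.7 and 225 FPKM in Sham (-2.30, SE 0.17, limma adjusted p = 3.82e-07), and Lamp1 differed by -1.48 (adjusted p = 4.94e-06). Grn, a lysosomal growth factor precursor, and Gusb, a lysosomal glucuronidase, fell by 1.46 and 1.02. Of 18 tested lysosome genes besides Cd68, 0 rose and 6 fell, against 16.4% and 41.9% of all genes. Against WT, 8 rose and 1 fell (Ctsl, a cathepsin, at -1.06) in RIPK1_D138N, where 29.8% of all genes rose and 21.9% fell. In TNFR12_KO 7 rose and 0 fell, where 29.6% of all genes rose and 17.5% fell. Lamp2 was 1.86 and 2.02 higher in RIPK1_D138N and TNFR12_KO than in WT, and Lamp1 0.99 and 1.19 higher.

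Lgals3 differed little between WT and Sham but was lowest in the mutants. It had 2.81, 1.82 and 0.901 FPKM in RIPK1_D138N, 1.53, 1.09 and 0.565 FPKM in TNFR12_KO, 3.48, 5.3 and 7.05 FPKM in WT, and 3.28, 4.41 and 1.67 FPKM in Sham. All mutant libraries lay under all WT libraries. TNFR12_KO also lay under all Sham libraries in FPKM as listed, but overlapped them with median-of-ratios scaling. The differences were -1.16 for RIPK1_D138N minus WT, -1.59 for TNFR12_KO minus WT and 0.62 for WT minus Sham (SE 0.32 each).

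Sprr1a was close to undetected in Sham and reached the level of Cd68 in WT. It had 6.25, 0.133 and 0.524 FPKM in RIPK1_D138N, 1.92, 4.28 and 0.436 FPKM in TNFR12_KO, 51.0, 60.3 and 82.4 FPKM in WT, and 0.063, 0 and 0.143 FPKM in Sham. RIPK1_D138N library 1 and TNFR12_KO library 2 were the highest of their groups, and both were far under every WT library. Low values in the table fall on whole-fragment steps. The smallest value of Sprr1a above 0, scaled for depth, was taken as 1 fragment. The fragment numbers and intervals below rest on this assumption. The 6 low values that were checked, this one included, lay within 0.05 of a whole number of fragments. The same step, with rounding, gave the fragments behind the larger values. Sprr1a had 87, 2 and 6 fragments in RIPK1_D138N, 26, 82 and 9 in TNFR12_KO, 1089, 2289 and 2064 in WT, and 1, 0 and 1 in Sham. Corrected for depth and summed over the libraries of a group, the ratio to Sham was 35.1 in RIPK1_D138N (exact 95% interval 9.46 to 294), 32.9 in TNFR12_KO (8.91 to 275) and 966 in WT (267 to 7976). The intervals cover counting error only and not the spread between libraries. Most of the RIPK1_D138N fragments came from library 1, and library 2 lay within the Sham range in FPKM.

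Few other cornified-envelope genes passed the filter. Of 19 genes listed besides Sprr1a, 9 were at 0 in every library and 2 passed the filter. Both rose in WT against Sham, where 16.4% of all genes rose. Tgm1, the transglutaminase that cross-links SPRR proteins in skin, had 6.79, 4.97 and 4.84 FPKM in RIPK1_D138N, 10.1, 7.46 and 10.6 FPKM in TNFR12_KO, 14.3, 20.2 and 13.5 FPKM in WT, and 8.14, 7.11 and 9.13 FPKM in Sham. Its difference was 0.88 for WT minus Sham (SE 0.20, limma adjusted p = 0.00197), -1.37 for RIPK1_D138N minus WT (adjusted p = 9.42e-05) and -0.70 for TNFR12_KO minus WT (adjusted p = 0.0107). Ppl, or periplakin, rose by 0.84 in WT against Sham (SE 0.24, adjusted p = 0.0104). It was also higher than Sham in RIPK1_D138N and TNFR12_KO (1.01 and 0.74, adjusted p = 0.00912 and 0.0426), and its differences from WT there were 0.17 and -0.10 (adjusted p = 0.582 and 0.767). Ivl, or involucrin, was below the filter, with 12, 2 and 0 fragments in RIPK1_D138N, 0, 1 and 0 in TNFR12_KO, 66, 7 and 365 in WT and 0 in each Sham library.

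A neighbour on chromosome 3 shared the high WT level of Sprr1a, but not its mutant levels or its order among the WT libraries. Lce1d, a late cornified envelope gene, had 0.092, 0 and 0 FPKM in RIPK1_D138N, 10.4, 35.4 and 6.86 FPKM in WT, and 0.081, 0 and 0 FPKM in Sham, and was listed at 0 in each TNFR12_KO library. The WT minus Sham difference was 3.85 (SE 0.39, limma adjusted p = 4.89e-06), and those of RIPK1_D138N and TNFR12_KO minus WT were -3.85 and -3.89 (adjusted p = 6.66e-06 and 7.32e-06). Only the WT libraries reached 1 FPKM, so Lce1d passed the filter through WT alone. Its p-values therefore add nothing to the levels. Late cornified envelope genes are near-identical copies of each other, so the assignment of these fragments to Lce1d is uncertain. Of the keratinocyte keratins, Krt14 had 0.615, 0.427 and 1.32 FPKM in WT, was listed at 0 in each Sham and RIPK1_D138N library, and did not pass the filter. The 6 keratinocyte markers together summed to 1.26 to 2.72 FPKM in WT and 4.28 to 5.16 FPKM in Sham, in Sham almost all from Krt10, which fell in WT (-1.48, adjusted p = 3.67e-05). The part of skin-type cells in the Sprr1a values was not tested.

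Placed on a scale with 0 at the Sham mean and 1 at the WT mean, the 7 genes that separated WT from Sham took different positions in the mutants. In RIPK1_D138N and TNFR12_KO the positions were 0.42 and 0.29 for S100a6, 0.35 and 0.46 for Anxa5, 0.34 and 0.22 for Anxa2, 0.34 and 0.18 for S100a11, 0.26 and 0.24 for S100a4, 0.19 and 0.24 for Sprr1a, and -0.13 and -0.05 for Cd68. Anxa5 and Sprr1a were thus further toward WT in TNFR12_KO, and the other 4 positive values in RIPK1_D138N. None of the 10 genes separated the libraries of RIPK1_D138N from those of TNFR12_KO, where 5.24% of all genes separated upward and 11.9% downward. In each mutant 4 genes lay wholly above Sham, against 10.5% of all genes in RIPK1_D138N and 13.4% in TNFR12_KO. Anxa1, Anxa2 and Anxa5 were among them in both, with S100a11 in RIPK1_D138N and Sprr1a in TNFR12_KO. S100a10 and Cd68 lay wholly under Sham in RIPK1_D138N, as 32.4% of all genes did, and Lgals3 in TNFR12_KO, as 28.8% did. These positions under Sham hold for FPKM as listed, and with median-of-ratios scaling each of them was lost through overlap with Sham.

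RIPK1_D138N library 1, the only library of its group without Xist, lay nearest to WT for all 7 of these genes. Its positions were 0.89 for S100a4 and 0.92 for S100a6, while libraries 2 and 3 stood at 0.10 and -0.20 for S100a4 and at 0.36 and -0.02 for S100a6. For Sprr1a the position was 0.47 in library 1, against 0.01 and 0.09 in libraries 2 and 3. Without the Xist-positive libraries the RIPK1_D138N minus WT difference was -0.15 for S100a4 in place of -0.99, -0.16 for S100a6 in place of -1.10, -0.68 for Lgals3 in place of -1.16, and -3.15 for Sprr1a in place of -4.79. It was -4.19 for Cd68, -2.35 for Anxa2 and -1.31 for Anxa5, each within 0.3 of the value with all libraries. The sex of the animals is not given for these libraries, and its part in these values was not tested.

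Of 29 further S100, annexin and galectin genes in the table, 14 were tested. In WT against Sham 0 rose and 4 fell, where 16.4% of all genes rose and 41.9% fell. With quantile normalization Anxa7 (0.61, adjusted p = 0.00284) and S100a16 (0.63, adjusted p = 0.024) rose as well. S100a1, an S100 protein known from heart and skeletal muscle, had 181, 148 and 160.3 FPKM in RIPK1_D138N, 166, 193 and 131 FPKM in TNFR12_KO, 30.7, 41.8 and 22.6 FPKM in WT, and 272, 171 and 214 FPKM in Sham. WT lay far under the other 3 groups. It fell in WT against Sham (-2.77, SE 0.24, limma adjusted p = 1.39e-06) and rose in both mutants against WT (2.36 each, SE 0.24). S100a13, a carrier in the release of fibroblast growth factor 1, fell by 1.61 in WT against Sham (adjusted p = 3.42e-05) and was 2.27 and 1.66 higher in RIPK1_D138N and TNFR12_KO than in WT.

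Of 4 tested galectins 2 fell in WT against Sham, where 41.9% of all genes fell. The values of Lgals1 and Lgals4, a gut galectin, were -0.42 and -0.37 (limma adjusted p = 0.198 and 0.349). Lgals9, a galectin that binds the immune receptor TIM-3, had 102, 142 and 129 FPKM in RIPK1_D138N, 153, 213 and 184 FPKM in TNFR12_KO, 44.4, 49.5 and 41.7 FPKM in WT, and 182, 174 and 214 FPKM in Sham (WT minus Sham -2.04, SE 0.18, limma adjusted p = 1.59e-06). Lgals8, which flags damaged endosomes for autophagy, differed by -2.06 (SE 0.19, adjusted p = 2.28e-06) in WT against Sham and stayed under Sham in RIPK1_D138N (-1.50) and TNFR12_KO (-1.28), although its locus overlaps that of Heatr1. Both had more transcript than Lgals3 in every library. The 4 falls in WT against Sham held under each alternative run.

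In each mutant 7 family genes rose against WT and 0 fell, where 29.8% of all genes rose and 21.9% fell in RIPK1_D138N and 29.6% and 17.5% did in TNFR12_KO. Beside S100a1, S100a13, Lgals8 and Lgals9 these were Lgals1, at 1.39 in RIPK1_D138N and 1.20 in TNFR12_KO, Anxa4, at 0.84 and 0.76, and Anxa6, at 0.74 and 0.77. Galectin-1 acts on T cells, and annexins A4 and A6 are membrane-binding annexins of epithelia and of many cell types. Without the Xist-positive libraries RIPK1_D138N is 1 library, assumed to vary like the other groups. The differences of Anxa4, Anxa6 and Lgals8 from WT were then 0.58, 0.35 and 0.72 and no longer called (adjusted p = 0.119, 0.410 and 0.0711), with that of Lgals8 above its 0.56 with all libraries. With quantile normalization Anxa4 (0.0580), Anxa6 (0.233) and Lgals8 (0.116) were lost in TNFR12_KO. In RIPK1_D138N the same scaling lost Anxa6 (0.204) and Lgals8 (0.469), and Lgals8 was also lost with median-of-ratios scaling (0.0516). Falls also appeared under other scalings: Anxa7 fell with quantile normalization in RIPK1_D138N (-0.85, adjusted p = 0.000267) and TNFR12_KO (-0.64, adjusted p = 0.00209), and Anxa3 with median-of-ratios scaling in TNFR12_KO (-0.64, adjusted p = 0.0324). Between RIPK1_D138N and TNFR12_KO limma called 0 of the 14 genes (2 at an unadjusted p under 0.05), and 0.929% of all genes. Against Sham, 3 rose (S100a13, Anxa4 and Lgals1) and 3 fell (Anxa7, Lgals8 and Lgals9) in RIPK1_D138N, where 7.51% of all genes rose and 22.7% fell. In TNFR12_KO 0 rose and 1 fell (Lgals8), where 7.46% rose and 18.1% fell. In TNFR12_KO Anxa4, Anxa6 and Lgals1 rose against Sham with median-of-ratios scaling (adjusted p = 0.0115, 0.0131 and 0.0215) and with quantile normalization (0.0161, 0.0256 and 0.0143). In RIPK1_D138N Anxa6 rose against Sham under both scalings (0.0103 and 0.0214), and Anxa7 (0.212 and 0.241) and Lgals9 (0.171 and 0.168) were not called. With library 1 alone, Lgals8 was called against Sham, and the differences not called were 1.10 for Lgals1 (adjusted p = 0.107), 0.34 for S100a13 (0.482), 0.29 for Anxa4 (0.521), -0.32 for Anxa7 (0.383) and -0.88 for Lgals9 (0.0579).

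**Figure D5:**
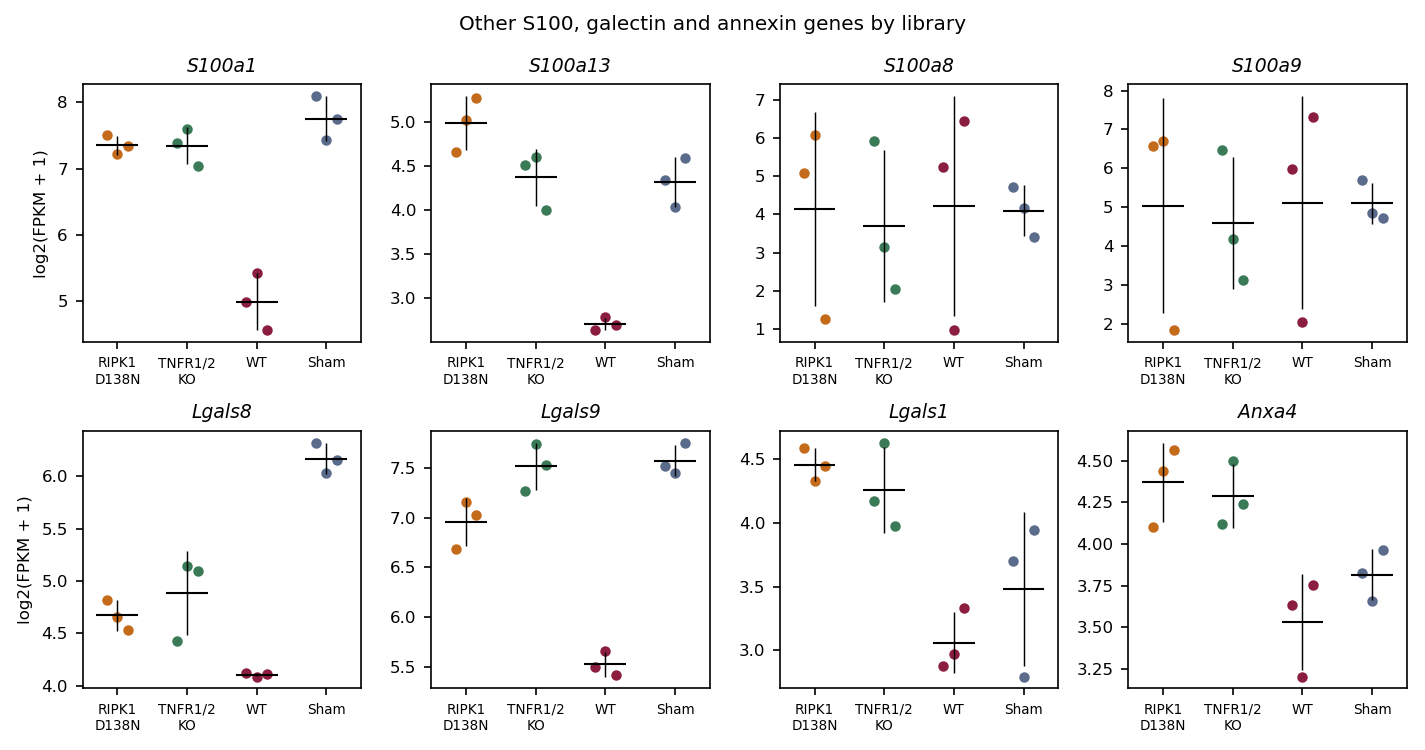
Level of 8 further S100, galectin and annexin genes as log2(FPKM + 1), with its own axis per gene; points are libraries (3 per group), bars group means and lines ± 1 SD. WT is lowest for S100a1, S100a13, Lgals8 and Lgals9, whereas S100a8 and S100a9 spread widely within RIPK1_D138N, TNFR12_KO and WT.

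S100a8 and S100a9, the calprotectin subunits of neutrophils, followed the library and not the group. S100a9 had 93.7, 104 and 2.61 FPKM in RIPK1_D138N, 87.2, 17.4 and 7.85 FPKM in TNFR12_KO, 62.2, 3.19 and 159 FPKM in WT, and 51.3, 28.1 and 25.6 FPKM in Sham (WT minus Sham 0.02, SE 1.39). Neutrophil granule genes varied with it in part. Ngp had 0.545, 28.9 and 0.101 FPKM in RIPK1_D138N, 20.7, 0.0919 and 0.141 FPKM in TNFR12_KO, 11, 0 and 21.1 FPKM in WT, and 0.11, 0.0833 and 0.166 FPKM in Sham. Of 6 tested neutrophil and monocyte markers, these included, limma called 0 in WT against Sham, RIPK1_D138N against WT or TNFR12_KO against WT, and 0 at an unadjusted p under 0.05. WT library b had the least S100a9 and Ngp of the WT libraries, and also the lowest Anxa1, Anxa2, Anxa5, S100a4, S100a10 and S100a11. It had the highest Cd68 and, narrowly, S100a6, and lay between the others for Sprr1a and Lgals3. The part of neutrophils in these values was not tested.

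Receptors and partners of S100 proteins and annexins changed individually. Of 10 listed, 6 were tested, and in WT against Sham 2 rose and 3 fell, against 16.4% and 41.9% of all genes. Plat, the tissue plasminogen activator, had 1.21, 1.06 and 1.49 FPKM in WT against 0.0633, 0 and 0.036 FPKM in Sham (1.12, SE 0.26, limma adjusted p = 0.00254), and Ahnak, a large scaffold that binds annexin A2 with S100A10, rose by 0.74 (adjusted p = 0.0245). Outside WT, Plat reached 1 FPKM only in RIPK1_D138N library 1 (1.73 FPKM), so it passed the filter through WT. The p-value of Plat and its place in the count therefore add nothing to its levels. Plg, the plasminogen that this tetramer docks, fell in WT (-1.80, adjusted p = 2.80e-05) and was 1.20 and 1.45 higher in RIPK1_D138N and TNFR12_KO than in WT. Cacybp, the partner of S100A6, fell in WT against Sham by 0.54 (adjusted p = 0.0331), and Lgals3bp, a secreted ligand of galectin-3, by 0.63 (adjusted p = 0.0258). Median-of-ratios factors were 0.842 to 0.972 in WT and 1.14 to 1.23 in Sham. With this scaling the falls of Cacybp and Lgals3bp were smaller and their WT and Sham libraries overlapped. The formyl peptide receptor Fpr1 and the S100 receptors Ager and Tlr4 were too low to be tested.

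Genes that work with annexins in plasma membrane repair moved in both directions. Of 9 tested, 2 rose and 2 fell in WT against Sham, against 16.4% and 41.9% of all genes. Chmp4b, an ESCRT-III subunit that sheds damaged membrane, had 32.4, 29.5 and 35.0 FPKM in RIPK1_D138N, 35.7, 39.3 and 32.5 FPKM in TNFR12_KO, 67.5, 68.9 and 71.4 FPKM in WT, and 41.4, 45.2 and 55.6 FPKM in Sham (WT minus Sham 0.55, SE 0.15, limma adjusted p = 0.00836). Capn2, a calcium-activated protease, rose by 0.86 (adjusted p = 0.00185). Pdcd6, the calcium sensor that recruits ESCRT proteins, fell by 1.66 (adjusted p = 8.43e-05), and Smpd1, acid sphingomyelinase, by 0.62 (adjusted p = 0.00369). With median-of-ratios scaling the fall of Smpd1 was smaller and its WT and Sham libraries overlapped. Against WT, 4 fell and 1 rose in RIPK1_D138N, where 21.9% of all genes fell and 29.8% rose, and 3 fell and 1 rose in TNFR12_KO, where 17.5% fell and 29.6% rose. Chmp4b, Capn2 and Ehd1, an endocytic ATPase, fell in both, by 1.08, 0.76 and 0.65 in RIPK1_D138N and by 0.93, 0.51 and 0.51 in TNFR12_KO, and Pdcd6 rose in both.

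Markers of other liver cells moved beside the 10 genes, and their part in the levels above was not tested. All 10 hepatocyte markers fell in WT against Sham, where 41.9% of all genes fell. Against WT 9 rose in each mutant, where 29.8% of all genes rose in RIPK1_D138N and 29.6% in TNFR12_KO. Together they summed to 19903 to 21664 FPKM in RIPK1_D138N, 19230.4 to 22453 FPKM in TNFR12_KO, 5201 to 8257 FPKM in WT and 30943 to 36189 FPKM in Sham. Of 9 tested stellate cell and fibroblast markers 5 rose in WT against Sham, where 16.4% of all genes rose, with Col3a1, a fibrillar collagen, at 3.72 (limma adjusted p = 1.10e-05). In RIPK1_D138N against WT 4 rose and 2 fell, where 29.8% of all genes rose and 21.9% fell. Lrat, Reln and Lum rose by 1.5, 1.42 and 1.19 (limma adjusted p = 3.24e-04, 0.00166 and 2.42e-04), and Col3a1 fell by 1.49 (adjusted p = 0.0104). In TNFR12_KO against WT 0 rose and 3 fell, where 29.6% rose and 17.5% fell. The sum of the list was 143 to 165 FPKM in RIPK1_D138N, 62.9 to 98.7 FPKM in TNFR12_KO, 134 to 165 FPKM in WT and 58.1 to 85.8 FPKM in Sham.

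Of 6 tested cholangiocyte and mesothelial markers 4 rose in WT against Sham, where 16.4% of all genes rose: Sox9, a transcription factor of bile-duct cells, at 2.93 (limma adjusted p = 9.53e-06), Spp1, or osteopontin, at 2.09, Krt19, a duct keratin, at 1.80 and Msln, or mesothelin, at 1.15. The list summed to 52.7 to 68.0 FPKM in RIPK1_D138N, 38.1 to 59.4 FPKM in TNFR12_KO, 73.3 to 204 FPKM in WT and 24.5 to 29.1 FPKM in Sham. Epcam, a defining surface marker of duct cells, was 0.135, 0.422 and 0.127 FPKM in WT against 0.341, 0.593 and 0.365 FPKM in Sham. Among 8 tested endothelial markers 2 rose and 3 fell in WT against Sham, against 16.4% and 41.9% of all genes. Pecam1 and Cdh5, endothelial junction proteins, rose by 1.22 and 1.57, and Clec4g, a sinusoidal lectin, fell by 3.38.

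The S100 genes sit in a cluster on chromosome 3 that they share with the cornified-envelope genes. Between S100a1 and S100a10 (90511034 to 93564643, mm10), 9 genes besides the members were tested. In WT against Sham 1 rose (Lce1d, which passed the filter through WT alone). Another 3 fell (S100a1, S100a13 and the predicted gene Gm9774), against 16.4% of all genes that rose and 41.9% that fell. S100a11 and S100a10 lie 28.8 kb apart, with WT minus Sham differences of 2.95 and -0.33. S100a4 and S100a6 (1.34 and 1.90) lie between S100a16 (-0.04) on one side and S100a8 (0.12) on the other. The pseudogene S100a11-ps was listed at 0 in every library.

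The 10 genes also differed in how closely each followed the rest. Across the 12 libraries, Pearson's r with the mean standardised profile of the other 9 was 0.953 for Sprr1a, 0.947 for S100a11, 0.945 for Anxa2, 0.903 for S100a4, 0.877 for S100a6, 0.876 for Cd68 and 0.859 for Anxa5. It was 0.623 for Lgals3, 0.201 for Anxa1 and 0.068 for S100a10. The 3 WT libraries set these values, since they stand apart from the other 9, and r is a description only.

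Among 6598 other genes, those nearest to the mean profile of the 10 were Cd63 (r = 0.972), Ch25h (0.970), Smox (0.964), Timp1 (0.963), Cd14 (0.962), Procr (0.959), Clcf1 (0.957) and Plaur (0.955). Cd63, a tetraspanin of late endosomes and lysosomes, had 13.2, 5.44 and 5.61 FPKM in RIPK1_D138N, 7.36, 8.41 and 4.61 FPKM in TNFR12_KO, 62.9, 53.0 and 64.4 FPKM in WT, and 4.49, 2.2 and 4.3 FPKM in Sham. As with S100a6 and Sprr1a, RIPK1_D138N library 1 was the highest of its group. Plaur, the receptor of urokinase, and Procr, the endothelial protein C receptor, act at the cell surface in coagulation and plasmin formation, and Timp1 inhibits matrix proteases. Cd14 is a co-receptor for bacterial lipopolysaccharide, Ch25h and Smox are enzymes of oxysterol and polyamine metabolism, and Clcf1 is a cytokine of the interleukin-6 family.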

How the data were processed

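Liver total RNA was sequenced in 12 libraries (NEB RNA Ultra kit, per the labels' protocols). The authors deposited 1 table of FPKM values; the tools were STAR 2.5.4a, Cufflinks 2.2.1 and Cuffdiff with mm10, per the submitters' processing notes. The annotation and strand setting are not given in the sources used here. FPKM carries no count, and depth was recovered only in relative terms, from whole-fragment steps: fragments behind 1 FPKM were fewest in Sham libraries b and c (0.505 and 0.506 of RIPK1_D138N library 1) and most in WT library b (2.74).

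Differences come from limma 3.58.1 (R 4.3.3, mean-variance trend) on log2(FPKM + 1), which understates changes of low genes. One model held 4 group means over 12 libraries, and 11728 genes that reached 1 FPKM in 3 or more libraries entered it. P-values were adjusted by Benjamini-Hochberg over all genes and called under 0.05. The fit was tested on simulated data. A symbol occurring more than once kept its highest row. The 10 members and all lists were chosen with earlier results of these data known. Named genes are the members, their families, the called list genes with the 4 greatest differences, defining markers, chromosome 3 neighbours and the 8 genes nearest to the member profile. Krt14, Ivl, Ngp, Adgre1, Timd4 and Fcgr1 were singled out after their values were seen. Coordinates are from the table, checked against GENCODE M21, and promoters from RefSeq.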

Additional observations from a re-analysis of the deposited data

How the results depend on the processing

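The FPKM of all genes sum lower in WT than in Sham, and scaling moved the split of calls. Calls in WT against Sham were 1918 higher and 4913 lower as reported, 2879 and 3505 with median-of-ratios scaling, and 2936 and 3164 with quantile normalization; the median of all genes was -0.36, -0.10 and -0.05. The corresponding splits in RIPK1_D138N against WT were 3500 and 2570, 3236 and 3056, and 3030 and 3286, in TNFR12_KO against WT 3466 and 2054, 3073 and 2745, and 2859 and 3093, in RIPK1_D138N against TNFR12_KO 41 and 68, 44 and 42, and 50 and 46, in RIPK1_D138N against Sham 881 and 2658, 1300 and 1419, and 1169 and 1347, and in TNFR12_KO against Sham 875 and 2127, 1237 and 1189, and 1122 and 1180. Apart from S100a10, the WT minus Sham differences of the members stayed positive under each scaling.

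Without a filter, 7 family genes in place of 4 were called in WT against Sham. In RIPK1_D138N against TNFR12_KO, 109 genes were called (1444 at an unadjusted p under 0.05), against 60 with no filter, 20 with only these groups in the model, 39 without the Xist-positive libraries, and 27 to 588 leaving out 1 library, with the highest count when RIPK1_D138N library 1 was left out; the family count was 0 throughout. Without the Xist-positive libraries, which leaves 1 RIPK1_D138N library, the family count was 4 in place of 7 in RIPK1_D138N against WT and 1 in place of 6 in RIPK1_D138N against Sham, where all genes gave 1038 in place of 3539. Leaving out 1 library there gave 2249 to 3509 genes, lowest without RIPK1_D138N library 3, and 2 to 6 family genes; only these groups in the model gave 1. In TNFR12_KO against Sham, leaving out 1 library gave 1856 to 2609 of 3002 genes, lowest without TNFR12_KO library 3, and 1 to 2 family genes in place of 1, with 4 (3 of them rises) under either scaling and 2 at 5 FPKM or more.

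With the replicate number as a block, 11 genes were called in RIPK1_D138N against TNFR12_KO and 0 of the family. Same-numbered libraries were not seen to deviate together (correlations -0.097, -0.202 and 0.057). Differently numbered ones gave -0.082 to 0.18. With so few libraries the check is weak, and a shared day or batch was not tested. No paired analysis was possible because the WT and Sham columns carry no usable number in the other comparisons. Low values are coarsest in Sham libraries b and c, where depth limits S100a4 and Sprr1a.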

Other observations

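Anxa8, an annexin below the filter, had 4, 3 and 1 fragments in RIPK1_D138N, 1, 20 and 13 in TNFR12_KO, 57, 227 and 108 in WT, and 8, 2 and 4 in Sham. In FPKM this was 0.0304 to 0.101 in RIPK1_D138N, 0.0259 to 0.368 in TNFR12_KO, 0.936 to 2.1 in WT and 0.1 to 0.2 in Sham. Fitted with no filter, it was called higher in WT than in Sham (1.09 on the log2 scale, limma adjusted p = 5.48e-04) and lower in RIPK1_D138N and TNFR12_KO than in WT (-1.21 and -1.05). Anxa13, a gut annexin, had 0.908 to 1.73 FPKM in RIPK1_D138N, against 0.112 to 0.597 FPKM in WT.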
